A study of Mus musculus with 12 samples.

Results

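The endothelial receptors and adhesion genes *Cdh5*, *Pecam1*, *Flt1*, *Kdr*, *Tek*, *Tie1*, *Eng*, *Esam*, *Egfl7* and *Emcn* were taken by gene name from the table of read counts, as 10 genes known from blood vessels. Of these, 7 had a row among the 18903 genes of the table, and *Pecam1*, *Tie1* and *Emcn* were not analysed here. All 7 passed the filter on low counts, together with 17938 genes in all. The RNA came from primary astrocytes grown from mouse brain on postnatal days 1, 6 and 8 (P1, P6 and P8), and each of the 6 groups had 2 libraries. According to the paper, WT stands for hGFAP-cre::Rack7 +/+ and cKO (conditional knockout) for hGFAP-cre::Rack7 fl/fl, so that both carried the Cre. The floxed line was made in C57BL/6 zygotes, and the strain of the Cre line was not given. The floxed exons are exons 3 and 4 of *Rack7*. This Cre is driven by the human GFAP promoter in neural stem cells of the forebrain, from which astrocytes and neurons descend, while endothelial cells have another origin. Meninges had been stripped off, and microglia and oligodendrocytes were shaken off the flasks. The labels call the replicates biological, without saying how many animals each holds.

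Endothelial cells line the blood vessels. VE-cadherin, the product of *Cdh5*, holds them together at adherens junctions, and ESAM sits at their tight junctions. KDR and FLT1 are the receptors of vascular endothelial growth factors, KDR as the main signalling receptor and FLT1 largely as a decoy that binds the ligand. TEK, also known as TIE2, is the receptor of the angiopoietins. Endoglin, the product of *Eng*, is a co-receptor for TGF-beta and BMP ligands, and *Egfl7* codes for a secreted matrix protein and hosts miR-126. *Flt1*, *Eng* and *Egfl7* are also known from mural cells, macrophages, fibroblasts or neurons. If the reads of all 7 genes came from endothelial cells and only the share of these cells differed between libraries, each gene would change by the same factor. The comparison of the genes with each other addressed this question. In bulk RNA, fewer cells of a type and less RNA per cell cannot be told apart.

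Total counts lay between 54413504 and 89183250 per library. *Zmynd8*, the gene of RACK7, had a P1 level of 136 CPM with the label WT and 214 with the label cKO, a P6 level of 115 and 236 and a P8 level of 102 and 166. Its level was thus higher with the label cKO at each time point, and libraries are named by their labels throughout. The paper checked RACK7 protein in WT and cKO primary astrocytes by immunoblot. It also reports that most RACK7 binding sites on chromatin were lost in cKO astrocytes. Why the RNA level was higher was not tested. A count over the whole gene does not show whether the floxed exons were present. Of 12 astrocyte markers, 11 had a row and none of these was at 0 in a group. Their summed level was 1738 to 2590 CPM in every group but P8 cKO, where it was 986 and 996 CPM. CPM is the read count scaled to a common library size with the normalization factors of edgeR. Genes were called at a Benjamini-Hochberg adjusted p below 0.05 in edgeR's quasi-likelihood test, with a fold change of at least 1.5. An exact permutation test on 2 against 2 libraries gives no two-sided p below 0.333.

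*Cdh5* (ENSMUSG00000031871, GRCm38 chromosome 8, 104101625 to 104144511) had the widest range of the 7 genes. It was at 1.54 and 1.72 CPM in P1 WT, 13.5 and 13.6 in P1 cKO, 55.7 and 57.0 in P6 WT, 1.11 and 0.607 in P6 cKO, 125 and 141 in P8 WT and 10.1 and 9.59 in P8 cKO. No group overlapped another, and the mean of the highest group, P8 WT, was 155 times that of the lowest, P6 cKO. Between the labels, cKO over WT, *Cdh5* rose at P1 by 3.05 ± 0.19 on the log2 scale (± here and for every log2 fold change is the standard error, n = 2 against 2 libraries, adjusted p = 6.96e-06 from edgeR). It had a log2 fold change of -6.03 ± 0.21 at P6 (adjusted p = 4.58e-08) and -3.76 ± 0.18 at P8 (adjusted p = 2.16e-07). Its order between the labels thus turned between P1 and P6.

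*Tek* (ENSMUSG00000006386, chromosome 4, 94739289 to 94874976) was close to the lower end of detection in 3 groups. It had 0.251 and 0.147 CPM in P1 WT, 0.816 and 0.404 in P1 cKO and 0.0609 and 0.373 in P6 cKO, and the first and the last of these groups held 27 and 28 reads in all. It stood at 17.0 and 16.9 CPM in P6 WT, 13.1 and 13.2 in P8 WT and 5.36 and 5.39 in P8 cKO. The 3 groups with *Tek* above 5 CPM were thus all later than P1, and P6 cKO was not among them. *Tek* fell at P6, with a log2 fold change of -6.28 ± 0.55 (adjusted p = 4.02e-05), and at P8, with -1.29 ± 0.41 (adjusted p = 0.0369). The P8 call was lost without P6 WT replicate 1 or 2 (both adjusted p = 0.0637), without P8 WT replicate 1 (0.115) or 2 (0.121), and without P8 cKO replicate 1 (0.151) or 2 (0.148). At P1 its log2 difference of 1.65 did not pass the test (adjusted p = 0.139), although it did without P6 cKO replicate 1 (0.0206) or 2 (0.0207).

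*Egfl7* (ENSMUSG00000026921, chromosome 2, 26580014 to 26593120) was measured by 28 reads in P6 cKO, its lowest group, and 601 in P8 WT, its highest. Its levels were 0.168 and 0.504 CPM in P1 WT, 0.493 and 0.913 in P1 cKO, 1.33 and 1.30 in P6 WT, 0.228 and 0.202 in P6 cKO, 4.32 and 4.77 in P8 WT and 0.791 and 0.999 in P8 cKO. P1 WT overlapped P1 cKO and P6 cKO, and P1 cKO overlapped P8 cKO. It fell at P6, with a log2 fold change of -2.60 ± 0.51 (adjusted p = 0.00375), and at P8, with -2.34 ± 0.46 (adjusted p = 0.00286), and at P1 its log2 fold change was 1.03 ± 0.49 (adjusted p = 0.260). Of its exon bases, 264 (7.37%) are shared with *Gm20532* on the same strand and 64 (1.79%) with *Agpat2* on the other strand. Whether the counting used strand was not stated in the methods. Without it, reads from the bases shared with *Agpat2* cannot be told apart. Reads from the bases shared with *Gm20532* cannot be told apart by strand in either case.

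*Esam* (ENSMUSG00000001946, chromosome 9, 37528078 to 37538319) was the lowest of the 7 in reads. It had 0.520 and 0.0983 CPM in P1 WT, 1.73 and 1.93 in P1 cKO, 2.98 and 2.15 in P6 WT, 0.259 and 0.0933 in P6 cKO, 0.589 and 0.790 in P8 WT and 1.71 and 2.10 in P8 cKO. At P1 and P6 it had the order of *Cdh5*, higher and then lower with the label cKO, but at P8 both libraries labelled cKO lay above both labelled WT. *Esam* rose at P1, with a log2 fold change of 2.61 ± 0.66 (adjusted p = 0.0337), and fell at P6, with -3.85 ± 0.70 (adjusted p = 0.00242). The P1 call was lost with the P1 libraries alone in the fit (adjusted p = 0.108), without P1 WT replicate 2 (log2 fold change 1.81, adjusted p = 0.108), P1 cKO replicate 1 (0.0843) or 2 (0.105) or P8 cKO replicate 1 (0.0554) or 2 (0.0563). Its P8 log2 fold change of 1.46 ± 0.61 (adjusted p = 0.0958) passed the test without P1 WT replicate 1 (0.0262) or 2 (0.0253), with the P8 libraries alone (0.0147) and in DESeq2 (0.0265).

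Of the receptors of vascular endothelial growth factors, *Flt1* (ENSMUSG00000029648, chromosome 5, 147561604 to 147726011) was highest at P6 with either label. It had 5.78 and 6.00 CPM in P1 WT, 16.3 and 17.1 in P1 cKO, 39.8 and 33.9 in P6 WT, 51.8 and 54.7 in P6 cKO, 6.36 and 3.92 in P8 WT and 19.9 and 18.9 in P8 cKO. The libraries labelled cKO were above those labelled WT at each time point, and the levels of P1 WT lay within the range of P8 WT. *Flt1* rose at P1, with a log2 fold change of 1.5 ± 0.18 (adjusted p = 0.000619), and at P8, with 1.92 ± 0.19 (adjusted p = 2.37e-05), and at P6 its log2 fold change was 0.53 ± 0.18 (adjusted p = 0.0515).

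*Kdr* (ENSMUSG00000062960, chromosome 5, 75932827 to 75978458) had 18.0 and 15.9 CPM in P1 WT, 19.6 and 16.5 in P1 cKO, 10.9 and 12.3 in P6 WT, 5.48 and 6.91 in P6 cKO, 3.40 and 3.35 in P8 WT and 4.57 and 3.06 in P8 cKO. The groups overlapped between the labels at P1 and at P8, and its highest and lowest group means, in P1 cKO and P8 WT, were 5.34-fold apart. Only at P6 did *Kdr* pass the test between the labels, where its log2 fold change was -0.90 ± 0.20 (adjusted p = 0.00666). That call was lost without P6 cKO replicate 1 (adjusted p = 0.0550). At P1 and P8 the 95% intervals of its log2 fold change ran from -0.34 to 0.51 and from -0.28 to 0.62.

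*Eng* (ENSMUSG00000026814, chromosome 2, 32646595 to 32682669) had the narrowest range of the 7 genes. It was at 8.82 and 7.72 CPM in P1 WT, 11.6 and 12.6 in P1 cKO, 11.8 and 10.1 in P6 WT, 11.8 and 10.9 in P6 cKO, 12.7 and 14.3 in P8 WT and 32.7 and 33.3 in P8 cKO. P1 cKO, P6 WT and P6 cKO overlapped each other, and P8 cKO stood above all the other groups. *Eng* rose at P8, with a log2 fold change of 1.29 ± 0.12 (adjusted p = 1.60e-05), and at P6 the 95% interval of its log2 fold change ran from -0.22 to 0.31. At P1 its log2 fold change of 0.55 (adjusted p = 0.0172) was under the fold cut-off, which it passed without P1 WT replicate 1 (0.64, adjusted p = 0.0348) or P1 cKO replicate 1 (0.61, adjusted p = 0.0427). *Eng* shares 61 exon bases, or 1.51%, with *Fpgs* on the other strand.

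**Figure D1:**
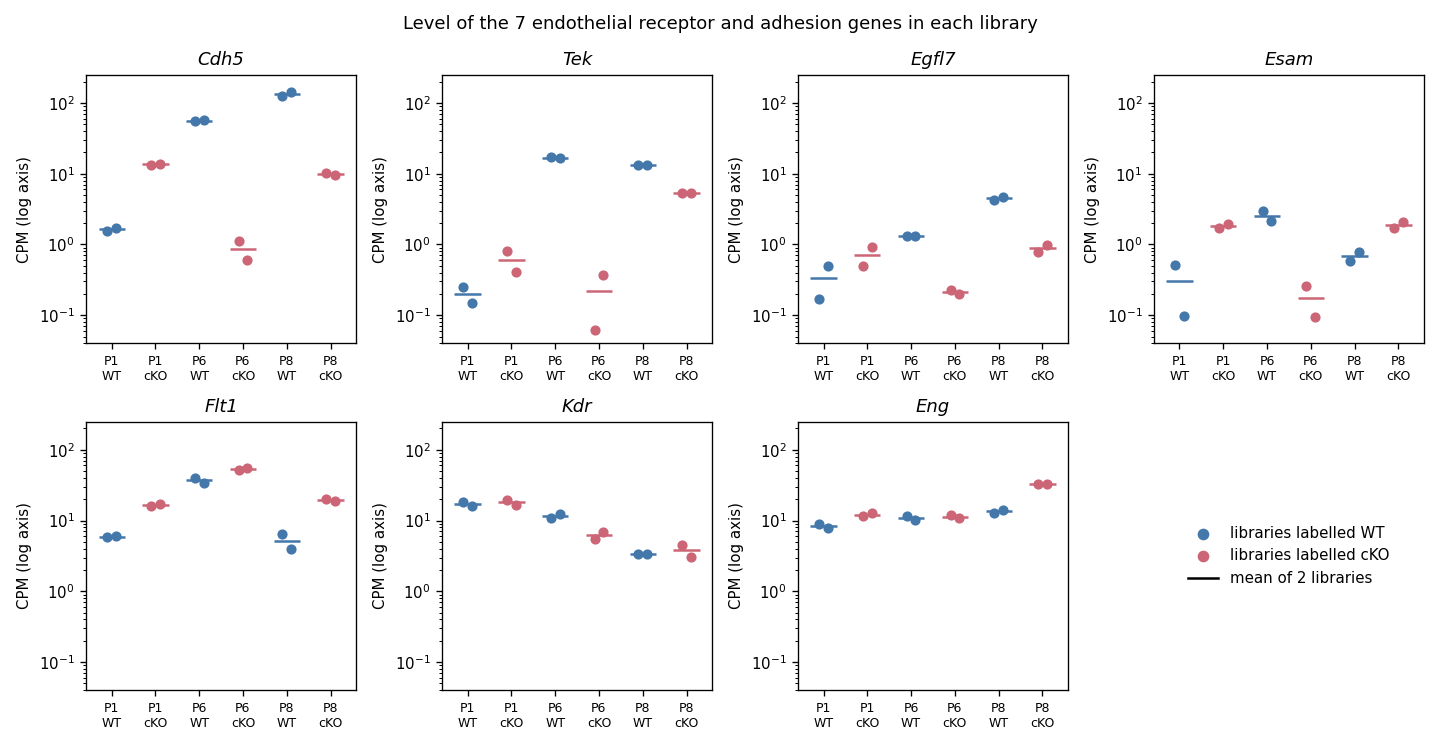
Level of each of the 7 genes in every library, in CPM on a log axis, by time point and label; points are libraries and lines are means of 2. *Cdh5*, *Tek* and *Egfl7* are lower in P6 cKO and P8 cKO than in the libraries labelled WT of the same day, *Flt1* is higher with the label cKO at each time point, and *Kdr* is lower at P8 than at P1 with either label.

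Set side by side, the genotype contrasts of the 7 genes had no common size. At P1 all 7 log2 fold changes were above 0, between 0.09 for *Kdr* and 3.05 for *Cdh5*, with a median of 1.5 against 0.00 over all genes tested. Of the genes, 3 rose (*Cdh5*, *Esam* and *Flt1*) and 0 fell, where 4% of all genes tested rose and 0.881% fell. The intervals did not overlap in 8 of the 21 pairs of genes. At P6 the log2 fold changes ran from -6.28 for *Tek* to 0.53 for *Flt1*, with a median of -2.60. At that time point 5 fell (*Cdh5*, *Tek*, *Esam*, *Egfl7* and *Kdr*) and 0 rose, against 6.32% and 7.12% of all genes, and the intervals were apart in 17 of 21 pairs. At P8, 2 rose (*Flt1* and *Eng*) and 3 fell (*Cdh5*, *Tek* and *Egfl7*), against 11% and 8.33% of all genes. The P8 log2 fold changes spread from -3.76 to 1.92 with a median of 0.17, and the intervals were apart in 15 of 21 pairs. In the directions with 0 calls, at P1 and P6, unadjusted p and DESeq2 gave 0 as well.

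**Figure D2:**
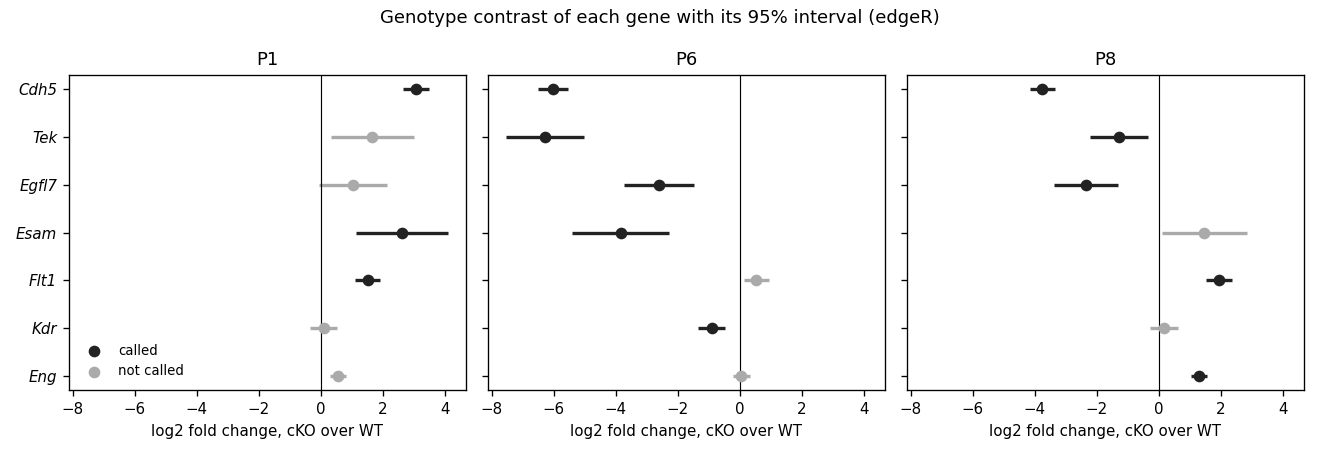
Log2 fold change of each gene between the libraries labelled cKO and WT at P1, P6 and P8, with 95% intervals from edgeR as bars; black marks genes called and grey those not called. At P8 the intervals of *Cdh5*, *Tek* and *Egfl7* lie below 0 and those of *Flt1*, *Eng* and *Esam* above 0, though *Esam* was not called.

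The ratio of 2 genes' counts within a library needs no normalization. A change in the share of cells that carry both genes would leave it as it is only if no other cells carried either gene. Whether other cells in the cultures carried them was not tested. The number of *Cdh5* reads for 1 *Kdr* read was 0.0856 and 0.108 in P1 WT, 5.11 and 4.64 in P6 WT and 36.9 and 42.0 in P8 WT. It was 0.690 and 0.822 in P1 cKO, 0.203 and 0.0878 in P6 cKO and 2.21 and 3.14 in P8 cKO. Replicates of a group thus differed less than most groups did, with wider spreads in P6 cKO, where *Cdh5* was low, and in P8 cKO. For *Eng* the number of *Cdh5* reads for 1 read went from 0.0559 in a P6 cKO library to 9.87 in both P8 WT libraries. For *Egfl7* it lay between 3 and 43.9, and between 29.0 and 43.9 in the 4 libraries labelled WT at P6 and P8. *Tek* differed from *Cdh5* there, with 3.28 and 3.38 *Cdh5* reads for 1 *Tek* read in P6 WT against 9.57 and 10.7 in P8 WT.

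Levels were compared between genes as CPM per kilobase of annotated exon, summed over the 7 genes. In P1 WT, *Eng* took 41.5% and 40.3% of this sum and *Kdr* 38.0% and 37.3%, while *Cdh5* took 6.99% and 8.65%. *Cdh5* led in P6 WT with 52.3% and 55.1% and in P8 WT with 78.5% and 79.6%. In P6 cKO *Flt1* led with 49.3% and 51.8%, and *Cdh5* was at 3.40% and 1.85%. *Eng* led in P8 cKO with 56.1% and 57.1%. The sum itself was 5.25 and 4.73 in P1 WT, 10.4 in both P1 cKO libraries, 25.3 and 24.6 in P6 WT, 7.79 and 7.81 in P6 cKO, 38.0 and 42.1 in P8 WT and 14.4 in both P8 cKO libraries. A different gene was therefore the main one in P6 WT, P6 cKO and P8 cKO.

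**Figure D3:**
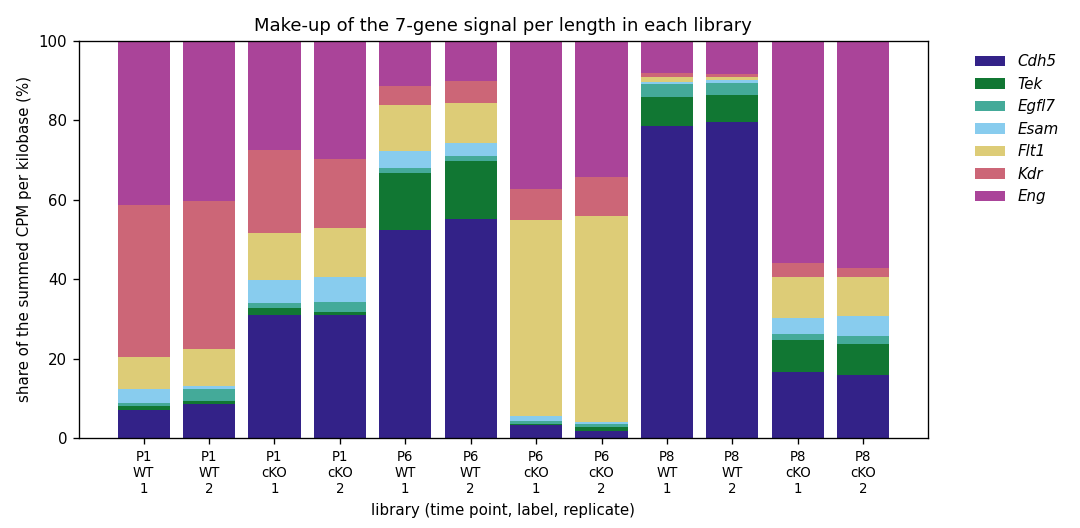
Share of each gene in the CPM per kilobase of exon summed over the 7 genes, in percent, for each of the 12 libraries. *Cdh5* makes up most of the sum in P6 WT and P8 WT, *Flt1* about as much as all others together in P6 cKO, and *Eng* more than the others together in P8 cKO.

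Within the label WT, 5 genes rose from P1 to P6 (*Tek*, *Cdh5*, *Esam*, *Flt1* and *Egfl7*) and 0 fell, against 12.2% and 10.8% of all genes. Of these changes that of *Tek* was the largest, at 6.43 ± 0.56 in log2 units (adjusted p = 1.77e-05 from edgeR). From P6 to P8, *Egfl7* (1.79) and *Cdh5* (1.24) rose, and *Flt1* (-2.85), *Esam* (-1.89) and *Kdr* (-1.78) fell, which makes 2 up and 3 down against 8.53% and 10.2% of all genes. The *Egfl7* call was lost without P6 WT replicate 1 or 2 or P8 WT replicate 2 (adjusted p = 0.0572, 0.0638 and 0.0605). The *Esam* call was lost without any of the P6 WT and P8 WT libraries, P1 cKO libraries or P8 cKO libraries (adjusted p = 0.05 to 0.170). Over both steps, from P1 to P8, 4 rose (*Cdh5*, *Tek*, *Egfl7* and *Eng*) and *Kdr* fell, against 14.2% and 14.8% of all genes. *Kdr* changed by -2.33 ± 0.20 (adjusted p = 6.60e-06 from edgeR) and *Cdh5* by 6.35 ± 0.21 (adjusted p = 7.05e-09). *Flt1* fell over that span only without P8 WT replicate 1 (-0.59, adjusted p = 0.00610) and *Esam* rose only without P1 WT replicate 1 (2.79, adjusted p = 0.00842).

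With the label cKO, *Flt1* again rose from P1 to P6 while other genes fell. The log2 change of *Flt1* was 1.67, and 4 genes fell (*Cdh5* -3.97, *Esam* -3.36, *Egfl7* -1.70 and *Kdr* -1.54), against 10.8% of all genes up and 10.3% down. The *Egfl7* call was lost without P1 cKO replicate 2 (adjusted p = 0.155) and without P6 cKO replicate 1 (0.0820) or 2 (0.102). *Tek*, at -1.49 (adjusted p = 0.0758), passed without P1 cKO replicate 2 (0.0492) or P6 cKO replicate 2 (0.00234), where its log2 change was -3.29. From P6 to P8 all 7 passed the test. *Tek* (4.62), *Cdh5* (3.51), *Esam* (3.42), *Egfl7* (2.05) and *Eng* (1.54) rose, and *Flt1* (-1.46) and *Kdr* (-0.70) fell, against 11.6% and 12% of all genes. The *Kdr* call was lost without P6 cKO replicate 2 (adjusted p = 0.119) or P8 cKO replicate 2 (0.132), and the *Egfl7* call without P6 cKO replicate 2 (0.0520). From P1 to P8 only *Tek* (3.13) and *Eng* (1.45) rose and *Kdr* (-2.24) fell, against 10.1% and 9.84% of all genes. Between P6 and P8, *Cdh5* and *Egfl7* rose and *Flt1* and *Kdr* fell with either label. *Kdr* thus fell from P1 to P8 with either label, while *Flt1* and *Cdh5* did not pass the test over that span with the label cKO. The steps of one label share the P6 libraries, and the steps and the genotype contrasts share libraries too.

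Whether the genotype effect itself changed with time was tested by an interaction term for each gene, called by adjusted p alone. Between P1 and P6 it became more negative for 6 of the 7 genes and more positive for 0, where it did so for 8.27% and 7.15% of all genes tested. The terms ran from -9.08 ± 0.28 for *Cdh5* (adjusted p = 2.41e-08 from edgeR) to -0.97 ± 0.25 for *Flt1* (adjusted p = 0.0273). *Eng*, at -0.50, was called at unadjusted p and in DESeq2 only. Between P6 and P8 it became more positive for 6 and more negative for 0, against 12.7% and 8.98% of all genes, and *Egfl7* was not called. *Esam* had the largest of these terms, 5.31 ± 0.93 (adjusted p = 0.00242 from edgeR). Between P1 and P8 the term was negative for *Cdh5* (-6.80), *Egfl7* (-3.37) and *Tek* (-2.94) and positive for *Eng* (0.74), against 11.7% and 14.1% of all genes. *Flt1*, *Kdr* and *Esam* were not called there, except *Flt1* without P8 WT replicate 1 (0.81, adjusted p = 0.00683) and *Esam* without P1 WT replicate 1 (-2.73, adjusted p = 0.0325). The terms of *Flt1* and *Kdr* from P1 to P6, of *Kdr* from P6 to P8 and of *Tek* from P1 to P8 each lost the call without single libraries, with an adjusted p of at most 0.0880, 0.111, 0.0721 and 0.0761. The interaction terms share libraries with each other.

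Across the 12 libraries, a single factor common to the 7 genes took 37.4% of the squared deviations of the group means of log2 CPM from each gene's own mean. Fully parallel genes would give 100% by construction. Unrelated genes would give a larger share the fewer they are, so shares of sets of different size are not on one scale. *Cdh5*, *Tek* and *Egfl7* gave 88.4% among themselves and 79.7% with *Esam* added, and *Flt1*, *Kdr* and *Eng* gave 27.3%. Each of these sets was put together here after the values were seen. Likeness was also described by Pearson's r of log2 CPM over the 12 libraries, which fall into 6 pairs of replicates, so it carries no test. *Cdh5* was most like *Egfl7* (r = 0.93), then *Tek* (0.87) and *Esam* (0.66), and was at -0.28 with *Kdr* and -0.29 with *Flt1*. Among the 17937 other genes tested, *Egfl7* ranked 38 by likeness to *Cdh5*, *Tek* 208 and *Kdr* 12457. The least alike pair was *Kdr* and *Eng* (r = -0.66). Within the 6 libraries of one label, *Cdh5* and *Flt1* had r = 0.25 with the label WT and -0.99 with the label cKO, and *Cdh5* and *Egfl7* had 0.93 and 0.91. *Tek* and *Eng* had 0.85 and 0.87 within the labels against 0.41 over all 12 libraries, and *Cdh5* and *Eng* had 0.92 with the label WT, 0.46 with the label cKO and 0.20 over all. Over all 12 libraries, of the 21 pairs, 3 had r above 0.8, all among *Cdh5*, *Tek* and *Egfl7*, and 7 had r below 0.

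The promoter windows of the members that moved most alike can be set beside those of the VEGF receptors, which did not follow them. RefSeq gave a window on GRCm38.p6 for 5 of the 7 genes, all but *Cdh5* and *Esam*. The 250 bases before the start were searched on both strands for GGAAG, which holds the core that ETS transcription factors are known to bind and that many endothelial genes carry. Capitals mark a match on either strand (GGAAG or CTTCC). Of 32851 windows of this length, 64.1% held at least 1 match, 10.7% at least 3 and 3.39% at least 4. *Egfl7* has 3 windows, with 4, 2 and 0 matches, of which the one with most matches is shown (chr2:26580833-26581082, + strand), which lies inside the annotated span of the gene. The window of *Tek* (chr4:94739039-94739288, + strand) had 0, that of *Flt1* (chr5:147726012-147726261, - strand) 3, that of *Kdr* (chr5:75978456-75978705, - strand) 1 and that of *Eng* 2.
Egfl7: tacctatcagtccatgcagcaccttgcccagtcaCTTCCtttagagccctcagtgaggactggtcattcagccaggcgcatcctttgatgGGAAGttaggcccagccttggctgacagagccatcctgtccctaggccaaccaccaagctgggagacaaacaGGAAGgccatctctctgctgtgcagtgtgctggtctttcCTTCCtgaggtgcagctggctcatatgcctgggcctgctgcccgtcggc
Tek: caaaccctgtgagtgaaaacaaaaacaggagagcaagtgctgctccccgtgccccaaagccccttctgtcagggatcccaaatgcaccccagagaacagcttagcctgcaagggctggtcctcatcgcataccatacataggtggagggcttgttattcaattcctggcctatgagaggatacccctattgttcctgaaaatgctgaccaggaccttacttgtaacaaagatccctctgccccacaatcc
Flt1: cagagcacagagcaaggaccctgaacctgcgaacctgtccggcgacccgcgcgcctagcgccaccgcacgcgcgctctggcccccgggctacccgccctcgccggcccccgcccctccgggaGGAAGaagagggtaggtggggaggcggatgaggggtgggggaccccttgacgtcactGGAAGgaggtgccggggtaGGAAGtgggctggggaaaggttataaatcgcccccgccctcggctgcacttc
Kdr: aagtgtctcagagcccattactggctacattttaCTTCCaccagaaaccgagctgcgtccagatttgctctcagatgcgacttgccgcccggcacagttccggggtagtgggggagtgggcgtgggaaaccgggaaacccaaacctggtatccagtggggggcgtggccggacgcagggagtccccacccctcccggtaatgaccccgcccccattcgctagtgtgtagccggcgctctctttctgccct
G and C made up 58.0% of the *Egfl7* window, 51.2% of that of *Tek*, 70.4% of that of *Flt1* and 61.6% of that of *Kdr*, with a median of 52.4% over all windows. The 4 windows held 3, 2, 23 and 16 CG dinucleotides, with a median of 6 over all windows.

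The genes most like each member were chosen among 15139 genes with a mean of at least 1 CPM. For *Cdh5* they were *Epyc* (r = 0.99), *Ctsk* (0.98) and *Dcn* (0.98). *Epyc* and *Dcn* code for small leucine-rich proteoglycans of connective tissue, and *Ctsk* for a protease that degrades collagen. For *Tek* they were *Mctp2*, *Rictor* and *Tnmd* (all 0.97), and for *Egfl7* *Enpep* (0.97), *Slc26a7* and *Tnfaip6* (both 0.96). *Flt1* was most like *Flna* (0.98), *Plaur* (0.98) and *Ncam1* (0.97), *Kdr* like *Ap1m1*, *E2f8* and *Gm13835* (all 0.96), *Eng* like *Cd22* (0.98), *Dusp7* and *Ldlrad3* (both 0.96) and *Esam* like *Lrrc15* (0.93), *Col7a1* (0.91) and *Ier3* (0.90). No gene stood among the 3 nearest of more than 1 member.

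Other endothelial genes did not move as one either. Of 29 genes in a list of other vascular and blood-brain barrier genes, 19 had a row and all of these were tested, while *Cldn5*, *Robo4*, *Icam2* and 7 more were not analysed here. At P1, 3 rose and 0 fell (median log2 fold change 0.24), at P6 8 rose and 4 fell (0.49), and at P8 10 rose and 2 fell (1.01), against medians of 0.00, 0.00 and 0.01 over all genes tested. As background, the shares called up among all genes were 4%, 7.12% and 11% in time order, and those called down 0.881%, 6.32% and 8.33%. With unadjusted p, this list gave 5, 9 and 11 genes up and 0, 4 and 3 down, in the same order. The most abundant genes of the list were *Stab1*, *Cd93* and *Itm2a*, with means over all libraries of 963, 131 and 74.8 CPM. *Stab1* and *Cd93* are also known from macrophages or other myeloid cells. *Itm2a* had the order of *Cdh5* at P6 and P8, at 130 against 9.70 CPM and 270 against 22.2. *Adgrl4*, a receptor known from vascular endothelium and named after its values were seen, went the other way at P6 and P8 but not at P1. It was at 0.268 ± 0.212 CPM (SD, n = 2) in P1 WT and 5.72 ± 0.557 in P1 cKO, at 0.939 ± 0.0342 against 82.6 ± 0.407 at P6 and at 0.660 ± 0.125 against 42.0 ± 0.761 at P8. It rose at all 3 time points, with a log2 fold change of 6.45 at P6 (adjusted p = 7.66e-07 from edgeR). At P6, *Cdh5* was thus 65.4-fold lower with the label cKO while *Adgrl4* went from below 1 to above 80 CPM.

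**Figure D4:**
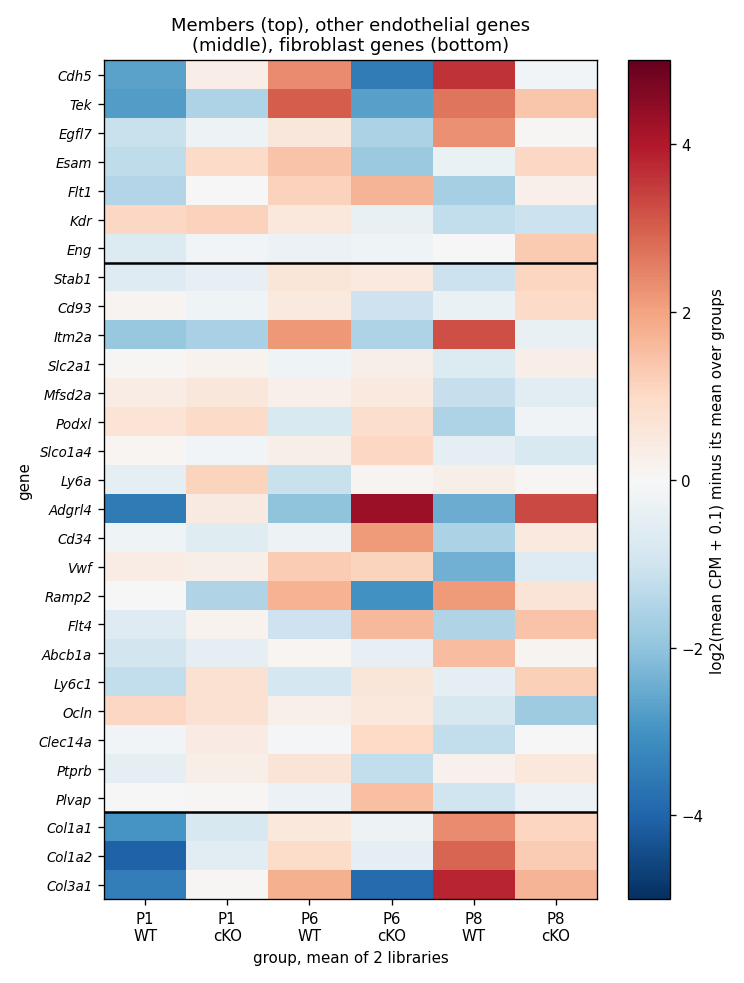
Log2 of the mean CPM plus 0.1 in each of the 6 groups, minus the mean over groups, for the 7 genes (top), 19 other endothelial genes (middle) and the 3 most abundant fibroblast genes (bottom). *Adgrl4* is low in all 3 groups labelled WT, which include P6 WT and P8 WT, where *Cdh5* and *Itm2a* are highest, and P1 WT, where both are low too.

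Among 18 transcription factors known from endothelium with a row, of 22 listed, 2 rose at P1 and 0 fell by edgeR (1 fell at unadjusted p and 1 by DESeq2), 3 rose and 5 fell at P6, and 6 rose and 1 fell at P8. Over all genes tested, 4% rose and 0.881% fell at P1, 7.12% rose and 6.32% fell at P6, and 11% rose and 8.33% fell at P8, which is also the background for the pathway lists that follow. The most abundant of these factors, *Elk3* and *Ets2* of the ETS family and *Klf4* of the Kruppel-like family, had means of 103, 73.4 and 55.3 CPM, and *Ets2* rose at P8 (log2 fold change 1.02, adjusted p = 2.21e-06 from edgeR). *Foxc2*, named after its values were seen, rose at P1 (2.24) and fell at P6 (-2.97) and P8 (-2.37). The list of ligands and partners of the VEGF and angiopoietin pathways had 14 genes with a row of 16, of which 6 rose at P1, 1 rose and 5 fell at P6, and 3 rose and 4 fell at P8. Its most abundant genes were *Itgb1*, the integrin beta 1 chain, *Nrp2*, a co-receptor of VEGF-C, and *Itgav*, the integrin alpha V chain, which fell at P6 (-0.88). *Svep1*, next in level and named after its values were seen, fell at P6 from 485 to 6.99 CPM and at P8 from 726 to 137. Of the TEK ligands, *Angpt1* fell at P6 (-1.70) and P8 (-1.94), and *Angpt4* rose at all 3 time points (1.56, 1.90 and 1.48). *Pgf*, which codes for a ligand of FLT1, rose at P1 (1.96) and fell at P6 (-4.07) and P8 (-2.93), and *Vegfa* rose at P1 (0.75). Around *Eng*, 14 ligands, receptors and targets of TGF-beta and BMP signalling with a row gave 0 calls at P1 by edgeR (also 0 at unadjusted p and 0 by DESeq2), 1 up and 2 down at P6, and 3 up and 2 down at P8. The most abundant were the receptors *Tgfbr2* and *Bmpr2* and the target gene *Id2*, of which *Tgfbr2* rose at P8 (0.65). Of 12 junction proteins that partner *Cdh5* and *Esam*, 0 were called at P1 by edgeR (0 at unadjusted p and 0 by DESeq2), 2 rose and 1 fell at P6, and 2 rose and 1 fell at P8. Of their most abundant members *Ctnnb1*, *Cdh2* and *Ctnnd1*, N-cadherin (*Cdh2*) rose at P6 (0.75) and P8 (1.74).

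Markers of other cells moved with some of the genes, and their part in the results was not tested. Of 10 fibroblast markers 9 had a row, and 8 of these rose at P1, 8 fell at P6 and 8 fell at P8 between the labels. Their summed level was 365 to 388 CPM in P1 WT, 2640 to 2676 in P1 cKO, 7646 to 7724 in P6 WT, 2416 to 2593 in P6 cKO, 28790 to 30938 in P8 WT and 8136 to 8380 in P8 cKO. *Col1a1*, *Col1a2* and *Col3a1* led it, and *Lum* alone was at 0 in all libraries of some group. This sum had r = 0.80 with *Cdh5*, 0.82 with *Tek* and 0.83 with *Egfl7* over the 12 libraries. It had r = 0.51 with *Eng*, 0.47 with *Esam*, 0.02 with *Flt1* and -0.73 with *Kdr*. Among the 17929 genes tested outside the fibroblast list, *Egfl7* ranked 726, *Tek* 787 and *Cdh5* 977 by r with it, so many other genes had a higher r. Of 14 microglia markers, led by *C1qa*, *C1qc* and *Fcrls*, 2 fell at P1 and 1 fell at P6, and 9 rose and 1 fell at P8, where *Eng* rose, and their sum was 4285 to 4339 CPM in P8 WT and 7534 to 7666 in P8 cKO. The sum of 4 border macrophage markers was 1217 to 1240 CPM in P8 WT and 1869 to 1898 in P8 cKO, where 2 of the 4 rose and 1 fell, after 2 up at P1 and 1 up and 2 down at P6. *Eng* had r = 0.70 with the microglia sum, 0.72 with that of border macrophages and -0.91 with that of astrocyte markers. Of 9 mural cell markers, 2 rose at P1 (4 at unadjusted p and 4 by DESeq2), 1 rose and 5 fell at P6 and 2 rose and 2 fell at P8. Their sum had r = 0.89 with *Flt1*, but it was mostly *Acta2* and *Tagln*. These had means over all libraries of 2073 and 1065 CPM, against 134 for *Pdgfrb*, the next. At P6, where 5 markers fell, *Acta2* was at 2044 CPM in WT and 2584 in cKO and *Tagln* at 1176 and 1562. *Pdgfrb* was at 180 and 120. No microglia or mural marker with a row was at 0 in a group. The 7 blood cell genes, led by hemoglobin genes, summed to 87.0 to 206 CPM at P1 and 3.16 to 6.28 at P6 and P8, and *Kdr* had r = 0.85 with this sum. The sum differed mainly between P1 and the later days, and *Kdr* too was highest at P1. Within P1 the sum was 87.0 to 105 CPM in WT and 181 to 206 in cKO, while the log2 fold change of *Kdr* was 0.09. Of the blood cell genes 1 rose at P1 by edgeR (4 at unadjusted p and 4 by DESeq2), and 0 were called at P6 and P8 by edgeR (0 at unadjusted p and 0 by DESeq2). Of 3 neuronal genes 1 rose at P1, 2 at P6 and 1 at P8, and their sum had r = -0.82 with both *Cdh5* and *Egfl7*. Of 8 genes of the oligodendrocyte lineage 2 fell at P6, and 1 rose and 2 fell at P8. Of 4 choroid plexus and ependyma genes 2 rose at P1, 2 rose and 2 fell at P6, and 2 rose and 1 fell at P8. Of 8 proliferation genes 1 fell at P6, and 1 rose and 1 fell at P8. The oligodendrocyte and proliferation genes gave 0 calls at P1 by edgeR (0 at unadjusted p and 0 by DESeq2). The lists of other cells are read against the same shares of all genes. Of the 11 astrocyte markers 1 rose at P1, 1 fell at P6 and 5 fell at P8. At unadjusted p and by DESeq2, 1 astrocyte and 1 microglia marker also rose at P6.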

How the data were processed

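RNA of cultured astrocytes was sequenced in 12 libraries, 2 per group, taken as replicates as the labels say. The values are raw counts per gene that the authors deposited, made from reads mapped to GRCm38 with Hisat2. The counting program and its strand setting were not given in the sources used here. Library totals lay between 54413504 and 89183250. Counts of low genes carry both counting error and the spread between replicates. In P6 cKO, for example, *Tek* had 4 and 24 reads, while *Egfl7* had 15 and 13. The members and lists were chosen with earlier results of these data known. Counts were fitted in R 4.3.3 with edgeR 4.0.16 (TMM, filter on low counts by filterByExpr, robust quasi-likelihood, 1 mean per group), with p adjusted over 17938 genes. The methods do not say whether p was adjusted for the cut-off of 1.5-fold. The fits were tested on simulated data. Log2 CPM used a prior count of 1. Exon lengths came from GENCODE vM21, which matched 18861 of 18903 identifiers. The genes named were the members, *Zmynd8*, the 3 most abundant genes of each list and the 3 genes most like each member. Genes beyond these were named after their values were seen, and 1 gene of the lists is not reported here. The further lists were for neurons, oligodendrocyte lineage, choroid plexus and ependyma, and proliferation. The alternatives were DESeq2 1.42.0 and its size factors, no filter, the replicate number as a block, the compared libraries alone, unadjusted p, 2-fold, other prior counts, the members known mainly from endothelium, and each library left out.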

Additional observations from a re-analysis of the deposited data

Results flagged for a closer look

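The genotype effect (cKO over WT, log2) differed between time points by an interaction term in edgeR for these genes. From P1 to P6 the term was -9.08 for *Cdh5* (adjusted p = 2.41e-08), -7.93 for *Tek* (0.000165), -6.45 for *Esam* (0.00122), -3.63 for *Egfl7* (0.00588), -0.99 for *Kdr* (0.0347) and -0.97 for *Flt1* (0.0273). The *Flt1* term lost its call without any P1 library, any P6 cKO library or P6 WT replicate 1 (adjusted p = 0.0613 to 0.0880). The *Kdr* term lost it without P1 WT replicate 1 or 2, P1 cKO replicate 1, P6 WT replicate 1 or 2, P6 cKO replicate 1 or P8 WT replicate 1 or 2 (0.0507 to 0.111).

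From P6 to P8 the term was 5.31 for *Esam* (adjusted p = 0.00242), 4.99 for *Tek* (0.000724), 2.27 for *Cdh5* (0.00016), 1.39 for *Flt1* (0.00317), 1.24 for *Eng* (0.000471) and 1.08 for *Kdr* (0.0203). The *Kdr* term lost its call without P6 WT replicate 2, P6 cKO replicate 1, P8 WT replicate 1 or 2 or P8 cKO replicate 1 (0.0557 to 0.0721).

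From P1 to P8 it was -6.80 for *Cdh5* (adjusted p = 7.07e-08), -3.37 for *Egfl7* (0.00393), -2.94 for *Tek* (0.0151) and 0.74 for *Eng* (0.00832). The *Tek* term lost its call without P1 WT replicate 2 (0.0744) or P1 cKO replicate 1 (0.0761). With 2 libraries in a group, no group was large enough to be searched for samples far from the rest.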

How the results depend on the processing

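With 2 libraries per group, and 23, 27 and 28 reads in the lowest group of *Esam*, *Tek* and *Egfl7*, the calls of these genes rested on few libraries. Of the comparisons of single genes under another setting, 412 kept direction and side of the threshold, 4 lost and 4 gained the call and 0 turned. With a library left out these numbers were 934, 51, 12 and 11, and all that turned were not called. At P1, all genes called numbered 552 with a fold change of at least 2 and 1548 with unadjusted p, and 1484 and 2004 passed at least 2-fold at P6 and P8, against 875, 2411 and 3474. For the 4 genes known mainly from endothelium (*Cdh5*, *Kdr*, *Tek* and *Esam*) the medians were 2.13 at P1, -4.94 at P6 and -0.56 at P8, and the share of a common factor was 54.1%. The share of 4 genes is not on the same scale as that of 7. A prior count of 5 gave 35.9% for the 7 genes. Without a library each, the share ran from 36.2% to 38.0%, the P8 median from -0.14 to 0.44, and the number of genes called from P6 to P8 with the label WT from 3 to 5.

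*Kdr* ran from -0.042 to 0.20 at P1 between labels, from -0.14 to 0.44 at P8 and from -0.23 to 0.35 in the interaction of P8 with P1, *Eng* from -0.062 to 0.16 at P6, and *Flt1* from -0.59 to 0.11 from P1 to P8 with the label WT. With the label cKO, *Esam* ran from -0.10 to 0.20 and *Egfl7* from -0.028 to 0.86 from P1 to P8. The fit with the replicate number as a block took the call from *Tek* at P8 (adjusted p = 0.0599) and from 0 others. Deviations of same-numbered WT and cKO libraries from their group means correlated at -0.0315 at P1, -0.00355 at P6 and -0.0638 at P8. The labels do not say whether such libraries shared a litter or a preparation, and 2 libraries per group cannot settle it. In the fit of the compared libraries alone, *Egfl7* from P1 to P6 (adjusted p = 0.0912) and *Kdr* from P6 to P8 (0.0773), both with the label cKO, also lost the call. DESeq2 called *Tek* in the former (0.0481) and *Eng* in the interaction of P6 with P1 (0.0279). The cause was not tested.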
